A study of Mus musculus with 72 samples.

Results

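The 10 core genes of the circadian clock were followed through the hearts of adult mice: the activators Arntl, Clock and Npas2, the repressors Per1, Per2, Per3, Cry1 and Cry2, and the nuclear receptors Nr1d1 and Nr1d2. They are 10 of the 24237 genes counted, each was found by its Entrez identifier, and all 10 passed the filter on low counts in every fit over both sexes. They are named clock genes and were chosen by their levels, in CPM (a gene's count scaled to the total of its library), in all 72 libraries by group and chamber. The levels and the differences between groups given here are therefore descriptions, and the share of all genes that edgeR called stands beside the first count of members called in each comparison of all its libraries.

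The clock is a feedback loop that runs in almost every cell. ARNTL (also called BMAL1) pairs with CLOCK or NPAS2 and switches on the Per, Cry and Nr1d genes, PER and CRY proteins then block that pair, and the NR1D proteins repress Arntl in turn, so that Arntl and its targets peak at opposite times of day. In the heart the loop sets daily rhythms of metabolism and rate, and like the aryl hydrocarbon receptor (AHR) several of its proteins belong to the PAS family.

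RNA was sequenced from each atrium, right and left, and from the ventricles of C57BL/6J mice of both sexes, in 4 groups: naïve Ahr+/+ mice, Ahr-/- mice, and Ahr+/+ mice whose dams received TCDD, a dioxin that binds AHR, by gavage during gestation at a low dose (0.1 μg/kg) or a high dose (1 μg/kg). By the study's methods Ahr+/+ dams were gavaged with corn oil vehicle or TCDD, whereas Ahr-/- dams received no treatment. The Ahr-/- and naïve groups thus differed in maternal treatment as well as in genotype. Each group, sex and chamber has 3 libraries. The study's methods give an age of about 10 months and gavage from embryonic day 7.5, whereas the sample labels give 9 months and gavage from embryonic day 13.5 to 18.5. The 3 chambers came from the same hearts, but the labels do not say which libraries share a heart, and neither source gives the hour at which a heart was taken. The label names the cells as cardiomyocytes, but the libraries are whole microdissected tissue, so fewer cells of a type and less RNA per cell cannot be told apart.

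Libraries held 11873417 to 28789382 counts, at which a count of 0 allows up to 0.104 to 0.253 CPM. Cardiomyocyte genes were high throughout (Myh6 9444 to 38491 CPM). In 19 of the 72 libraries the markers go against the label: 15 for the chamber, by the atrial light chain gene Myl4, and 8 for the sex, by Xist and 4 Y-linked genes, 4 of them for both. The 8 atrial libraries of this kind had 2.21 to 48.7 CPM of Myl4 against at least 621 CPM in the other 40, and 7 ventricular libraries had 167 to 3533 CPM against at most 93.3 CPM. Of these 19 libraries, 7 were among the 48 numbered 1 to 48 and 12 among the 24 numbered 49 to 72, where each of the 4 groups had 3 of its 6 against their labels. The same 3 labels were affected in every group: female right atrium (for the sex), male left atrium (for the chamber) and male ventricle (for both). The check by Myl4 does not separate right from left atria, so a swap between them would not be seen. Ahr itself had 2.00 to 9.23 CPM (median 5.05) in the libraries labelled Ahr-/- and 8.59 to 30.8 CPM (median 14.2) in naïve libraries, so the ranges overlapped slightly. Which part of the gene is deleted was not checked here. Atria that passed by Myl4 also held ventricular markers, with a sum of Myl2 and Myl3 of 8072 CPM in library 28, a high-dose left atrium. Median sums in naïve and high-dose libraries were 2588 and 4469 CPM in right atria and 3529 and 5360 CPM in left atria, with overlapping ranges. In naïve ventricles the median was 6516 CPM. The part of ventricular tissue in the atrial results was not tested. Calls of members over both sexes are given with and without the 19 libraries and within each range of library numbers. Other results are over all libraries unless a subset is named.

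Promoter windows of 250 bases before the start site, from RefSeq (GRCm38.p6), were at hand for 9 of the 10 genes. The set of windows used held none for Per2. Of their 13 windows, 4 of the 5 that carry a motif of the loop are shown, 1 for each gene, with the motif in capitals (the other, of Clock, holds AGGTCA alone): the E-box CACGTG to which ARNTL pairs bind, the D-box TTATGTAA bound by DBP, TEF and HLF, or AGGTCA, the core bound by NR1D receptors. Both strands were searched, so that TGACCT is AGGTCA on the other strand, and the 3 motifs do not overlap in these windows. A match is a match of letters and no more.

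Per1, chr11:69098699-69098948, + strand: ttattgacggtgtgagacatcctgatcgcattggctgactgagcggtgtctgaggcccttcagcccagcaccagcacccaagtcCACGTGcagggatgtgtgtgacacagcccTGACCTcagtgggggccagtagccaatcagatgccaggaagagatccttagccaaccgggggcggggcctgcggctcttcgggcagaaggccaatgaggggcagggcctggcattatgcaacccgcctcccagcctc

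Cry1, chr10:85185055-85185304, - strand: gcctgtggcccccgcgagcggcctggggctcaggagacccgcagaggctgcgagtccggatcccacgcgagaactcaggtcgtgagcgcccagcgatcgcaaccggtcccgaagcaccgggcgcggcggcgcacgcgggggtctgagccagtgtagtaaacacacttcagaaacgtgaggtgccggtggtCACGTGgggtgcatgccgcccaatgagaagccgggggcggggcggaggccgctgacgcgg

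Per3, chr4:151044666-151044915, - strand: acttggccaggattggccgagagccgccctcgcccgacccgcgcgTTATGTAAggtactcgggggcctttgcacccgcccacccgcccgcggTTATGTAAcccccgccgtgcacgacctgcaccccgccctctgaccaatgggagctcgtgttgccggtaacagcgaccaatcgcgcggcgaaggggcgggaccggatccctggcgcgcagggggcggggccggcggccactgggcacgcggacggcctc

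Nr1d2, chr14:18239107-18239356, - strand: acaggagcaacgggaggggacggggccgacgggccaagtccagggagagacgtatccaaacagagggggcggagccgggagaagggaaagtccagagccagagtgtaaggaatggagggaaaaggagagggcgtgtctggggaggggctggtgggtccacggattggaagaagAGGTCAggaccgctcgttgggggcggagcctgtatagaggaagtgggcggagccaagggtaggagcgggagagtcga

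The E-box letters were in 2 of the 13 windows (Per1 and Cry1), and 6.02% of the 32851 windows in the table hold them. The D-box letters were in 1 of the 13, that of Per3, at 2 places, against 0.819% of all windows. AGGTCA was in 3 of the 13, of Per1, Nr1d2 and Clock, against 14.0% of all windows. The 5 letters GCGTG, the core to which AHR binds with its partner, were in 9 of the 13 windows, of 8 genes, and 28.2% of all windows hold them. The gene without GCGTG was Arntl, neither of whose 2 windows, which overlap each other, held any of the 4 motifs.

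Levels between genes can be set side by side only per length, and were divided by the coding length. In the 6 naïve right atria Nr1d2 stood highest, at a median of 184 CPM per coding kb (131 to 291). Nr1d1 and Cry2 followed at 52.0 and 45.9 CPM per coding kb, and their ranges overlapped each other but not that of Nr1d2. Clock, Per3, Per1, Per2 and Cry1 formed a middle range, with medians of 20.8, 16.7, 14.9, 11.9 and 9.71 CPM per coding kb, in which each overlapped the next. Arntl (median 1.32, range 0.460 to 3.53) and Npas2 (median 0.771, range 0.424 to 1.29) were lowest, and neither reached the lowest Cry1 value of 7.46 CPM per coding kb. Npas2 is the member with the fewest counts, down to 1 count in a naïve left atrium.

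No member was called between chambers of naïve hearts. Over 18 naïve libraries, with sex and library number as terms, edgeR (quasi-likelihood, p-values adjusted by Benjamini-Hochberg) called 0 of 30 differences between chambers in the members, with 3 of 30 at an unadjusted p under 0.05, and DESeq2 called 0. All 3 were between right atrium and ventricle, where 20.8% of all genes were at that p and DESeq2 called 708 of 14315 genes. Of all genes tested, 0.00671% were called between right atrium and ventricle, 0% between left atrium and ventricle and 0% between the atria. Per3 had the lowest adjusted p, with a log2 fold change of 0.69 ± 0.23 (SE) from ventricle to right atrium (edgeR adjusted p = 0.141). Without the libraries that go against their labels that difference was 0.91 and was called (edgeR adjusted p = 0.0397), as were 3011 of 14995 genes. The spread between naïve libraries was wide for the activator Arntl: 15 of 18 had 0.873 to 9.08 CPM, whereas libraries 52, 53 and 54 had 14.6, 19.4 and 11.52 CPM. These are labelled a female left atrium and a male and a female ventricle, and 53 goes against its label for both sex and chamber. By Xist all 3 are female (292, 284 and 194 CPM). By Myl4, 52 and 53 are atrial (1257 and 1378 CPM) and 54 ventricular (3.14 CPM). These are the markers that the 3 chambers of 1 female heart would have. Whether they share a heart was not tested, so they may not be 3 separate deviations. The same 3 libraries had the lowest Per2 of the naïve libraries of their chambers, at 16.1, 15.6 and 15.0 CPM.

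**Figure D1:**
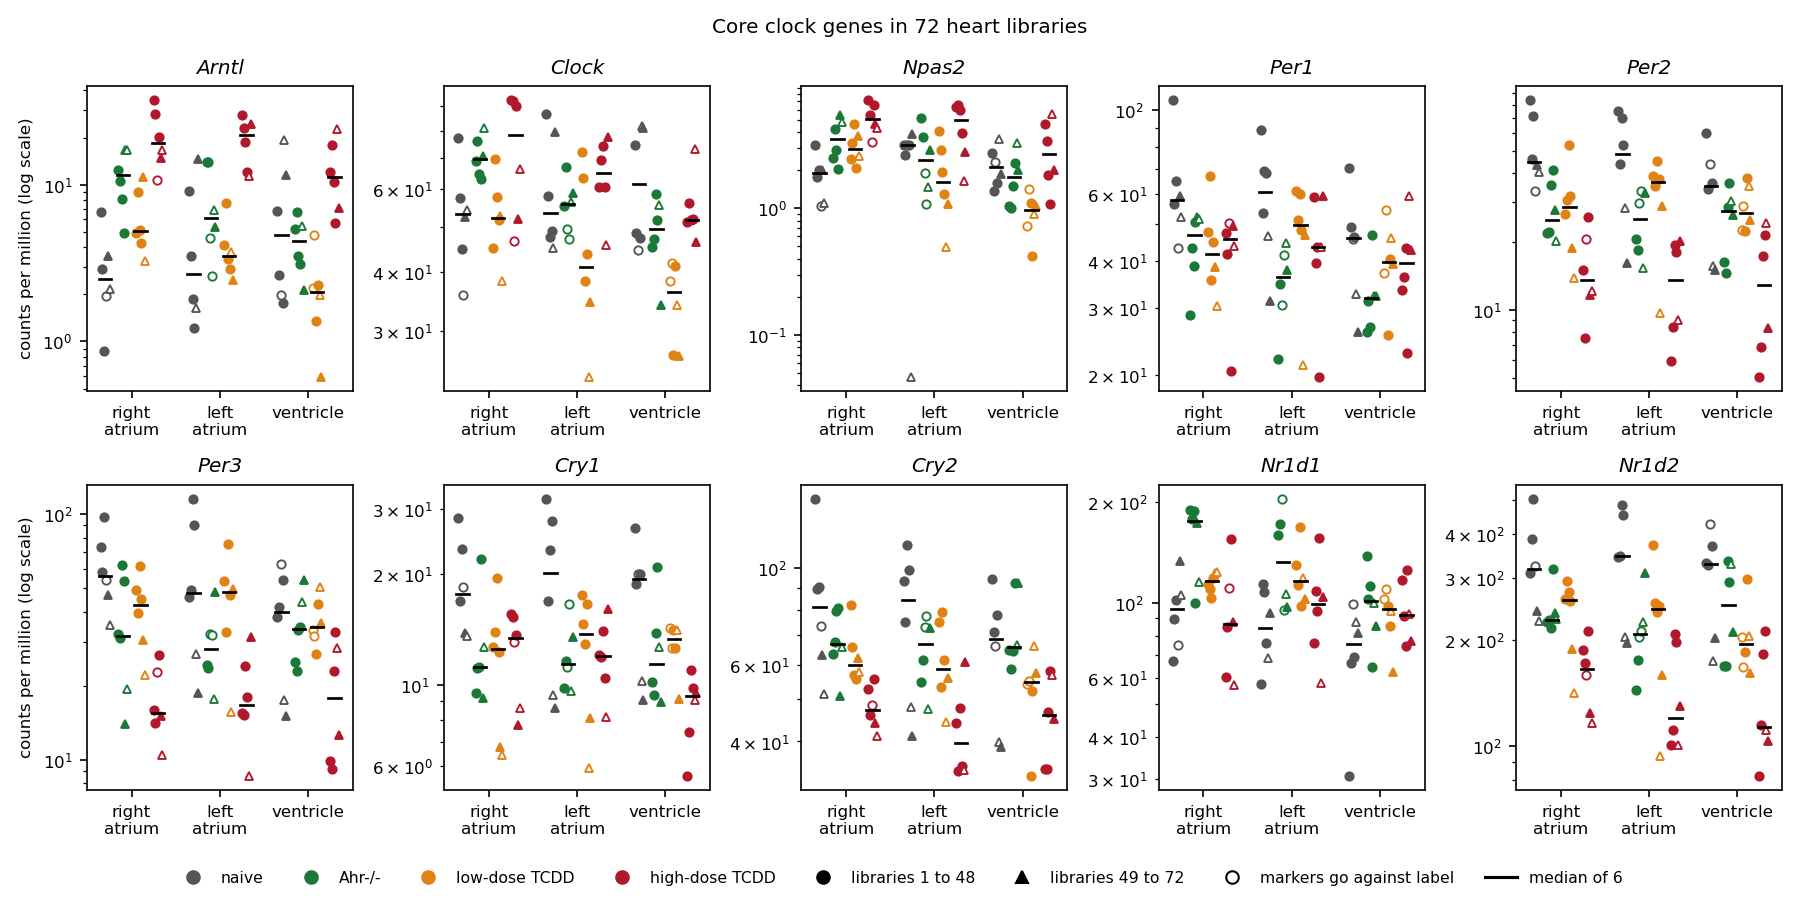
CPM of each core clock gene (log axis) in every library, by chamber and group, with a bar at the median of the 6 libraries of a group; triangles are libraries 49 to 72 and open symbols are libraries whose markers go against the label. High-dose right atria had 10.8 to 34.8 CPM of Arntl, all above the naïve maximum of 6.70 CPM.

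In the right atrium 2 activators were higher and 3 genes that repress the loop or Arntl were lower at the high dose. Arntl was 7.59 times the naïve level and Npas2 3.00 times, whereas Per2, Per3 and Nr1d2 were 3.39, 3.29 and 1.97 times lower. For each of these 5 genes all 6 high-dose libraries lay outside the range of the 6 naïve ones, as did those of 59 of all 15981 genes tested (0.369%). Right and left are as labelled here and were not checked. Library 52, labelled a naïve left atrium, had 14.6 CPM of Arntl and 18.7 CPM of Per3, inside the ranges of the high-dose right atria. Of the 10 members edgeR called 2 higher and 3 lower, while of the 15981 genes tested 28 were called (0.175%), 8 of them higher (0.0501%) and 20 lower (0.125%). Since the members were chosen with this comparison in view, nothing is read from the difference between those shares.

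Arntl (Entrez 11865, chr7:113178471-113314126 of GRCm38.p6), the DNA-binding partner without which the loop stops, had a lowest, median and highest level of 0.873, 2.51 and 6.70 CPM in naïve right atria. At the high dose the values were 10.8, 18.4 and 34.8 CPM. The log2 fold change was 2.92 ± 0.31 (SE, edgeR adjusted p = 4.73e-05). The lowest high-dose library thus exceeded the highest naïve one. Npas2 (Entrez 18143, chr1:39193702-39363240), the partner that can stand in for CLOCK, had 1.04, 1.89 and 3.17 CPM in naïve right atria and 3.34, 5.06 and 7.20 CPM at the high dose. These ranges were also apart, by a narrow gap, with a log2 fold change of 1.58 ± 0.27 (SE, edgeR adjusted p = 0.00524). Clock, at 46.6 to 92.9 CPM against 35.9 to 77.2 CPM, overlapped, and its log2 fold change of 0.50 ± 0.15 (SE) was not called (edgeR adjusted p = 0.342).

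Per3 (Entrez 18628, chr4:150997018-151044707), a period gene with the D-box letters printed above, had 35.2, 55.8 and 97.1 CPM (lowest, median and highest) in naïve right atria against 10.4, 15.5 and 26.6 CPM at the high dose. It fell by 1.72 ± 0.19 on the log2 scale (SE, edgeR adjusted p = 4.98e-05). Per2 (Entrez 18627, chr1:91415977-91459351), a period gene whose protein also binds nuclear receptors, had 33.4, 45.0 and 84.4 CPM in naïve and 7.53, 13.6 and 25.8 CPM in high-dose libraries. For it too, no high-dose library reached the lowest naïve one (log2 fold change -1.76 ± 0.24, SE, edgeR adjusted p = 0.000505). Nr1d2 (REV-ERBβ, Entrez 353187, chr14:18204056-18239106), which represses Arntl, had 226, 318 and 503 CPM in naïve and 116, 165 and 212 CPM in high-dose libraries, a log2 fold change of -0.98 ± 0.13 (SE, edgeR adjusted p = 0.000505).

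The other repressors moved less. Cry2, a cryptochrome that blocks the ARNTL pair, had 41.1 to 55.7 CPM at the high dose and 51.5 to 144 CPM in naïve right atria, and missed the threshold (log2 fold change -0.73 ± 0.16, SE, edgeR adjusted p = 0.0521). Cry2 was called with DESeq2 (among 81 of 15981 genes), and by edgeR with library size only (among 24) and without the terms for sex and library numbers (among 28), each with the 5 genes above. Cry1 and Per1 had log2 fold changes of -0.58 ± 0.18 and -0.50 ± 0.22 (SE, edgeR adjusted p = 0.356 and 0.570). Nr1d1 (REV-ERBα), the close relative of Nr1d2, had a log2 fold change of 0.01 ± 0.21 (SE, edgeR adjusted p = 0.994), with 56.9 to 155 CPM against 67.2 to 133 CPM. The ranges of these 4 genes overlapped between the groups. Among libraries that match their labels, 4 of 4 high-dose ones were below each of 4 naïve ones for Cry2 and for Per1, where 425 of 15981 genes (2.66%) were apart in either direction, and Cry1 and Nr1d1 still overlapped.

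Since the 6 high-dose and 6 naïve right atria were apart for these 5 genes, their direction in any subset of the libraries is fixed, and the values by library number describe sizes only. In libraries 1 to 48 alone the log2 fold changes were 2.99 for Arntl, 1.51 for Npas2, -1.88 for Per2, -1.86 for Per3 and -1.06 for Nr1d2, and 4 of the 5 were called, Npas2 not (edgeR adjusted p = 0.137), among 13 of 16077 genes. In libraries 49 to 72 alone they were 2.72, 1.75, -1.64, -1.51 and -0.78 in the same order. With 2 libraries a group in the second set, edgeR called 0 genes of all tested. Without the libraries that go against their labels the log2 fold changes were 2.98, 1.46, -2.07, -1.87 and -1.004, and Npas2 was again not called (edgeR adjusted p = 0.172), with 10 of 17053 genes called. Leaving out any 1 library lost none of the 5 calls.

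**Figure D2:**
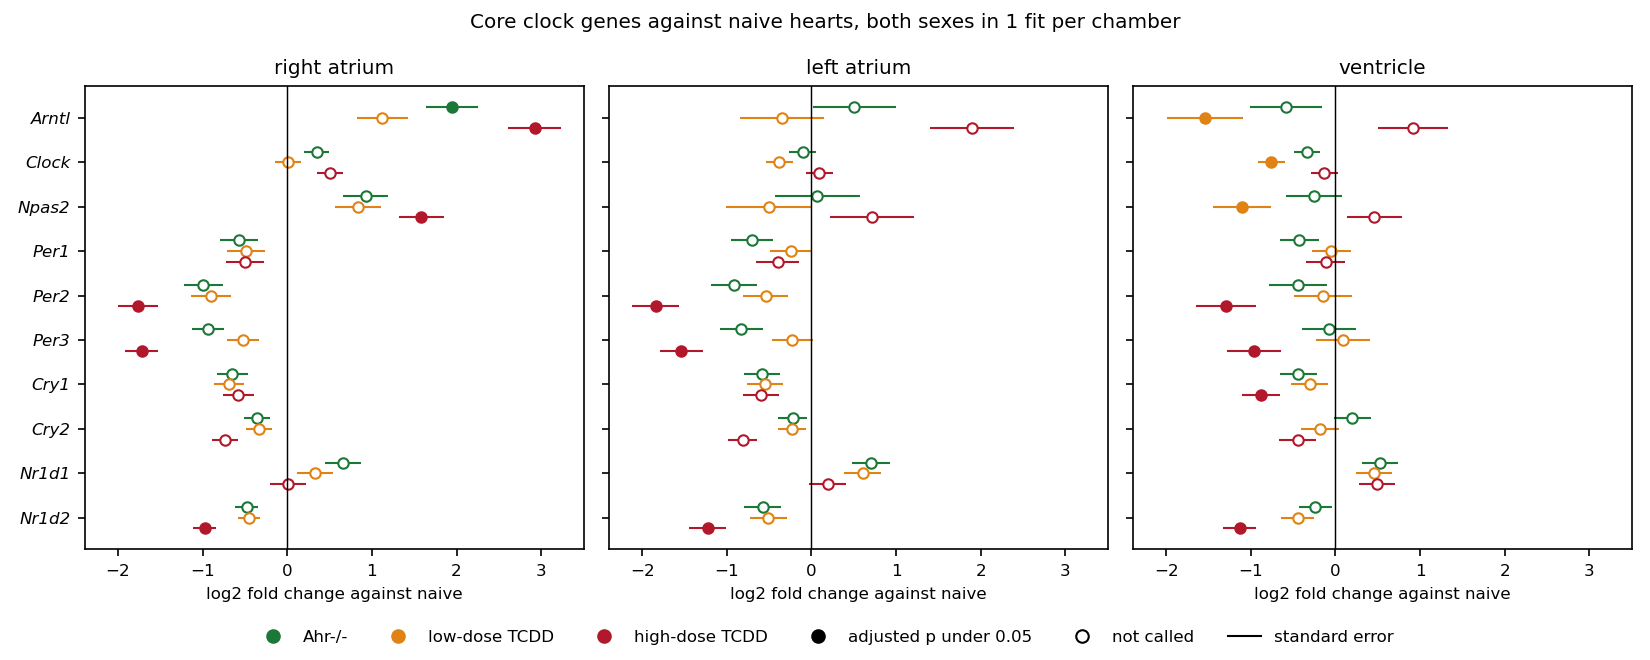
Log2 fold changes against naïve hearts (horizontal axis, both sexes in 1 fit per chamber, bars are standard errors) of the 10 clock genes in Ahr-/-, low-dose and high-dose hearts; filled points are called at an adjusted p under 0.05. In the right atrium the high-dose points for Arntl and Npas2 lie at 2.92 and 1.58 and those for Per2 and Per3 at -1.76 and -1.72.

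In the left atrium the high dose went with the same 3 genes lower, but edgeR called no activator. Per2, Per3 and Nr1d2 were 3.58, 2.90 and 2.34 times lower than in naïve left atria. Of 16014 genes tested 9 were called (0.0562%), 8 of them lower (0.05%), and 3 of the 10 members were among these 8. Again nothing is read from the difference between the shares. DESeq2 called 5 members there, these 3 with Arntl higher and Cry2 lower, among 542 of 15082 genes.

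Per2 had 5.98, 13.6 and 20.1 CPM (lowest, median and highest) at the high dose against 16.1, 48.6 and 75.5 CPM in naïve left atria, with a log2 fold change of -1.84 ± 0.28 (SE, edgeR adjusted p = 0.0103). Per3 had 8.56, 16.7 and 31.6 CPM against 18.7, 47.6 and 115 CPM, a log2 fold change of -1.54 ± 0.25 (SE, edgeR adjusted p = 0.0216). Nr1d2 had 100, 120 and 207 CPM against 196, 345 and 485 CPM, a log2 fold change of -1.23 ± 0.22 (SE, edgeR adjusted p = 0.0328). In each of the 3 the groups overlapped, for Per2 through naïve library 52 (16.1 CPM) and for Per3 and Nr1d2 through naïve libraries 51 (26.9 and 204 CPM) and 52 (18.7 and 196 CPM). Library 51 is 1 of those whose Myl4 goes against the label.

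Arntl in the left atrium had 1.21, 2.68 and 14.6 CPM in naïve and 11.4, 20.8 and 27.8 CPM in high-dose libraries, and all 6 high-dose libraries were above the naïve median. Its log2 fold change of 1.90 ± 0.50 (SE) was not called (edgeR adjusted p = 0.0824). Without library 52, the naïve female left atrium with 14.6 CPM, it was 2.88 and was called (edgeR adjusted p = 0.000455). Npas2 had a log2 fold change of 0.71 ± 0.50 (SE, edgeR adjusted p = 0.455) and Clock of 0.10 ± 0.16 (SE, edgeR adjusted p = 0.797). Cry2 was at -0.81 ± 0.17 (SE, edgeR adjusted p = 0.0571).

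The left atrial calls depended on the scaling, the model and the libraries that entered. With library size only, Per3 and Nr1d2 were not called (edgeR adjusted p = 0.0995 for each), and without the terms for sex and library numbers Per3 was not (edgeR adjusted p = 0.0552). In libraries 1 to 48 alone the log2 fold changes were 2.64 for Arntl, -2.36 for Per2, -1.96 for Per3 and -1.43 for Nr1d2, and edgeR called 6 members, these 4 and both Cry genes, among 474 of 16138 genes. In libraries 49 to 72 alone the values for Arntl, Per2, Per3 and Nr1d2 were 1.20, -0.93, -0.70 and -0.91, none called. In that set naïve library 51 and high-dose library 63 are ventricular by Myl4 (3.90 and 2.21 CPM). Without the libraries that go against their labels the calls were lost at sizes near the main ones: Per2 was at -1.94 (edgeR adjusted p = 0.0671), Per3 at -1.57 (edgeR adjusted p = 0.0702) and Nr1d2 at -1.33 (edgeR adjusted p = 0.0671). Leaving out 1 library ended the call of Per3 in 6 of 12 cases and of Nr1d2 in 7 of 12, and that of Per2 in 1, the high-dose library 26. Over the 12 fits Per3 was at -1.76 to -1.40, Nr1d2 at -1.35 to -1.16 and Per2 at -2.09 to -1.64.

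In the ventricle the high dose went with lower Per2, Per3, Nr1d2 and, in this chamber, Cry1, and with no called activator. Over all genes the ventricle differed far more than the atria, with 2810 of 15263 genes called (18.4%), 1625 of them lower (10.6%). Sums of the cardiomyocyte markers (Tnnt2, Myh6 and Actc1) were there at 22325 to 42182 CPM in naïve, 37433 to 60816 CPM in low-dose and 35220 to 65670 CPM in high-dose ventricles. Those of the ventricular markers (Myl2 and Myl3) were at 3308 to 7153, 2696 to 16193 and 1322 to 11743 CPM in the same order, and the part of either in the ventricular results was not tested. The 4 members called, all lower, have to be seen beside the 10.6% of all genes called lower. Nr1d2 had 81.8, 113 and 212 CPM (lowest, median and highest) against 174, 328 and 428 CPM in naïve ventricles, a log2 fold change of -1.13 ± 0.19 (SE, edgeR adjusted p = 0.00132). Cry1, the cryptochrome with the E-box letters printed above, had 5.63, 9.29 and 10.9 CPM against 9.09, 19.4 and 26.8 CPM, a log2 fold change of -0.88 ± 0.22 (SE, edgeR adjusted p = 0.00981). The ranges of both overlapped.

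Per2 and Per3 in the ventricle had log2 fold changes of -1.29 ± 0.35 and -0.96 ± 0.32 (SE, edgeR adjusted p = 0.0147 and 0.0398). Their high-dose libraries spanned 5.06 to 24.2 CPM for Per2 and 9.17 to 33.2 CPM for Per3, and the lowest naïve libraries, 53 and 54, had 15.6 and 15.0 CPM of Per2 and 17.5 and 15.0 CPM of Per3. Those 2 naïve libraries thus lay inside the high-dose range. Arntl had 5.68, 11.2 and 22.7 CPM at the high dose against 1.75, 4.76 and 19.4 CPM in naïve ventricles and was not called, with a log2 fold change of 0.91 ± 0.41 (SE, edgeR adjusted p = 0.123). Without library 54, a naïve female ventricle, it was 1.36 and was called (edgeR adjusted p = 0.0197).

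The 2 ranges of library numbers gave different answers in libraries labelled ventricle. In libraries 1 to 48 alone Arntl was 1.93 higher on the log2 scale, and Per2, Per3, Cry1 and Nr1d2 were at -1.90, -1.39, -1.30 and -1.29, all 5 called together with Cry2, among 2680 of 14794 genes. In libraries 49 to 72 alone the log2 fold changes were -0.16 for Arntl, 0.02 for Per2, 0.34 for Per3 and 0.05 for Cry1, and -0.74 for Nr1d2, none called. For Arntl, Per2, Per3 and Cry1 the sign was thus opposite in the second set, and Nr1d2 alone of the 4 called genes kept its own. That set holds naïve libraries 53 and 54 and high-dose libraries 65 and 66. Of these, 53 and 65, labelled male ventricles, are atrial by Myl4 (1378 and 1469 CPM) and female by Xist (284 and 329 CPM). Without the libraries that go against their labels the 4 calls held, at -1.82 for Per2, -1.21 for Per3, -1.06 for Cry1 and -1.22 for Nr1d2, among 3092 of 14874 genes called, 1727 of them lower. Leaving out 1 library ended the call of Per3 in 8 of 12 cases (libraries 33, 34, 35, 36, 41, 42, 43 and 66) and of none of the other 3. Over the 12 fits Per3 was at -1.20 to -0.82. The call of Per3 was also lost with no filter on low counts (edgeR adjusted p = 0.0608), with library size only (edgeR adjusted p = 0.0534) and without the terms for sex and library numbers (edgeR adjusted p = 0.0564). What the library numbers stand for is not given in the labels, and its part in these results was not tested.

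**Figure D3:**
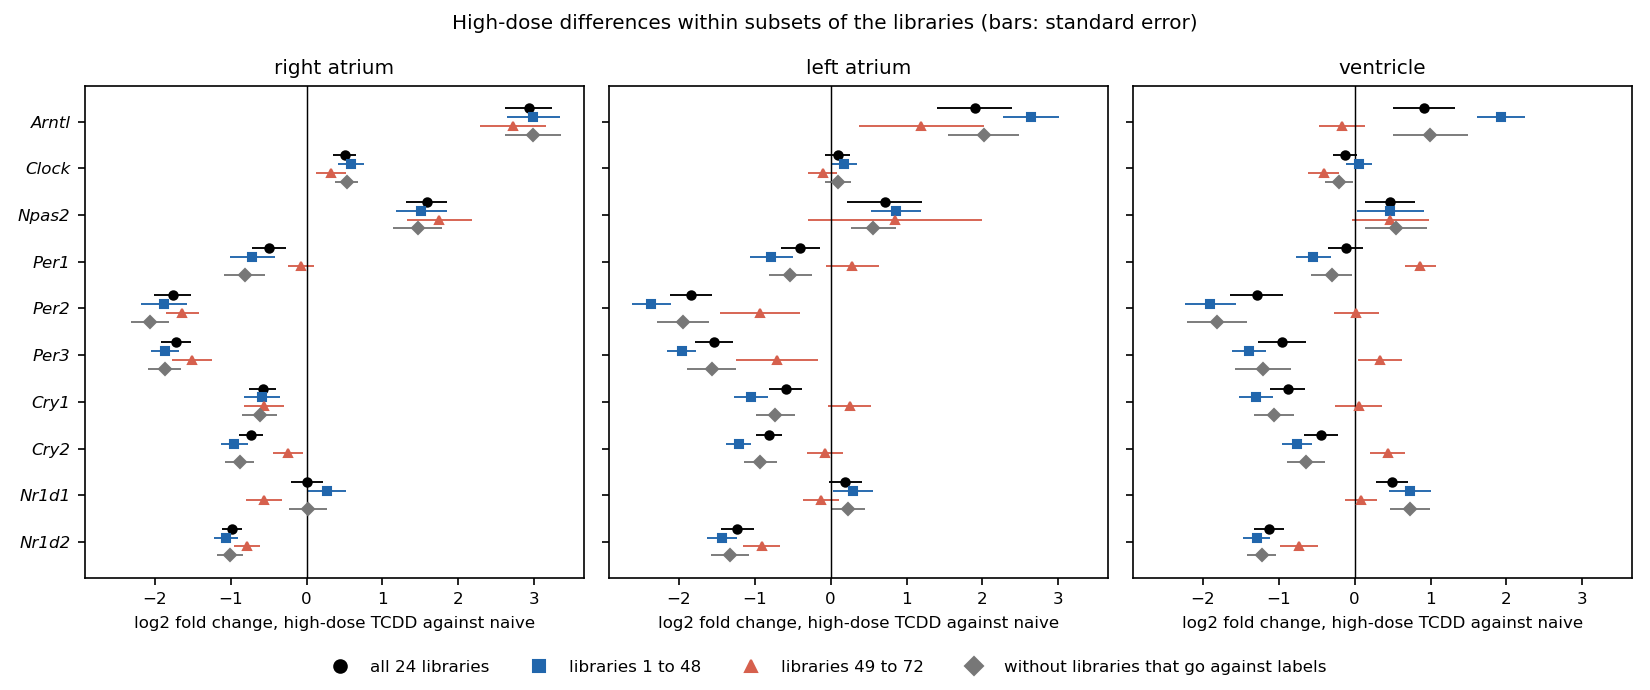
Log2 fold changes of high-dose against naïve hearts (horizontal axis, bars are standard errors) from all 24 libraries of a chamber, from libraries 1 to 48, from libraries 49 to 72, and without the libraries whose markers go against the label. Right atrial values of the 5 called genes stay close together (Arntl 2.99 and 2.72 in the 2 ranges of numbers), whereas in the ventricle Arntl is at 1.93 in libraries 1 to 48 and at -0.16 in libraries 49 to 72. Of the ventricles in that last set, naïve library 53 and high-dose library 65 are atrial by Myl4.

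In low-dose hearts edgeR called no member in the atria and called the 3 activators lower in the ventricle. In low-dose right and left atria edgeR called 0 of 10 members each and 0% of all genes, with 8 and 4 members at an unadjusted p under 0.05, beside 11.3% and 16.4% of all genes. DESeq2 called 3 members (Arntl, Per2 and Cry1) in the right atrium, among 110 of 15981 genes, and 0 in the left, where it called 336 of 11978 genes. Arntl in low-dose right atria was at 3.27 to 11.1 CPM, above the naïve median in 6 of 6 libraries, with a log2 fold change of 1.12 ± 0.30 (SE, edgeR adjusted p = 0.247). In low-dose ventricles 2026 of 15263 genes were called (13.3%), 1201 of them lower (7.87%), and 3 of 10 members were called, all lower. These were the 3 activators, Arntl, Clock and Npas2.

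Clock, the most abundant activator, had 26.6, 36.3 and 41.8 CPM (lowest, median and highest) in low-dose ventricles against 44.7, 61.6 and 82.0 CPM in naïve ones. The groups did not overlap, as for 6.7% of all genes in this comparison, and the log2 fold change was -0.76 ± 0.16 (SE, edgeR adjusted p = 0.00623). Arntl had 0.591, 2.08 and 4.78 CPM against 1.75, 4.76 and 19.4 CPM, with overlap, a log2 fold change of -1.54 ± 0.44 (SE, edgeR adjusted p = 0.0266). Npas2 had 0.420, 0.972 and 1.43 CPM against 1.37, 2.11 and 3.56 CPM, with 5 of 6 low-dose libraries below every naïve one, a log2 fold change of -1.10 ± 0.34 (SE, edgeR adjusted p = 0.0358).

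Within libraries 1 to 48 the low-dose ventricular log2 fold changes were -0.23 for Arntl, -0.49 for Clock and -1.08 for Npas2, none called. Cry2 (-0.63) and Nr1d2 (-0.73) were called there instead, among 2013 of 14794 genes. Within libraries 49 to 72 the values of the 3 activators were -3.49, -1.20 and -1.14, and Arntl was called (edgeR adjusted p = 0.0343), among 2 of 15584 genes. In that set naïve library 53 and low-dose library 71 are atrial by Myl4 (1378 and 3533 CPM). Without the libraries that go against their labels, which removes 3 of the 6 low-dose ventricles, only Clock of the 3 kept its call, at -0.88 (edgeR adjusted p = 0.0344), among 1022 of 14874 genes. There Arntl was at about its size over all libraries and Npas2 at a smaller one. Leaving out 1 library ended the call of Arntl in 6 of 12 cases and of Npas2 in 8 of 12, and never that of Clock. Over the 12 fits Arntl was at -1.80 to -1.13 and Npas2 at -1.25 to -0.975. Without the terms for sex and library numbers Npas2 was not called (edgeR adjusted p = 0.0543).

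In Ahr-/- hearts, Arntl of the right atrium was the only member called by edgeR over all libraries, in the model with terms for sex and library numbers. Without those terms it was at 1.90 and was not called (edgeR adjusted p = 0.0878). Arntl had 4.91, 11.54 and 16.7 CPM (lowest, median and highest) against 0.873, 2.51 and 6.70 CPM in naïve right atria, and 5 of 6 Ahr-/- libraries were above every naïve one. The log2 fold change was 1.95 ± 0.31 (SE, edgeR adjusted p = 0.0104), or 3.86 times the naïve level. Of all genes 6 were called there (0.0375%), 5 of them higher (0.0313%). In that chamber 10 of 10 members and 9.00% of all genes were at an unadjusted p under 0.05, and DESeq2 called 4 members, Arntl higher and Per2, Per3 and Nr1d2 lower, among 116 of 13812 genes. Within libraries 1 to 48 the difference was 1.58 (edgeR adjusted p = 0.0728), within libraries 49 to 72 it was 2.54 (edgeR adjusted p = 0.101), and without the libraries that go against their labels it was 1.77 (edgeR adjusted p = 0.132). Sums of adipocyte markers were at 16.4 to 658 CPM in Ahr-/- right atria. In naïve ones they were at 0.768 to 18.9 CPM, and at 303 CPM in library 50. Their part in the difference of Arntl was not tested.

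Per3 in Ahr-/- right atria missed the threshold at a log2 fold change of -0.93 ± 0.19 (SE, edgeR adjusted p = 0.0597). Nr1d1 had its highest group median there, 175 CPM against 96.0 CPM in naïve right atria, with 4 of 6 libraries above every naïve one and a log2 fold change of 0.66 ± 0.21 (SE, edgeR adjusted p = 0.325). In Ahr-/- left atria and ventricles edgeR called 0 of 10 members each, against 0.0187% and 0.0852% of all genes. There 6 and 2 members were at an unadjusted p under 0.05, beside 14.1% and 14.9% of all genes. DESeq2 called 0 members in either chamber, with 108 of 15703 and 60 of 8753 genes called. Within libraries 1 to 48 alone, 5 members were called in the Ahr-/- left atrium, all lower: Per3 (-1.27), Per2 (-1.24), Nr1d2 (-1.08), Per1 (-1.04) and Cry1 (-0.96). In that fit 836 of 16138 genes were called, 547 of them lower, and 2 of its 4 Ahr-/- libraries (23 and 24) go against their labels by Myl4. Ahr-/- and TCDD groups were compared with the same naïve libraries, so the comparisons are not independent of each other.

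Taken 1 sex and chamber at a time, as the study compared them, few calls were made. Sex and chamber are as labelled here, and the libraries that go against their labels were kept. Over 18 comparisons of 3 libraries against 3, edgeR called 1 of 180 member tests, Nr1d2 in high-dose female ventricles, at -0.84 (edgeR adjusted p = 0.0275). In that comparison 23.7% of all genes were called, 11.4% lower. In Ahr-/- female ventricles 0.0216% of all genes were called and in the other 16 comparisons 0%. Of the 180 member tests, 61 had an unadjusted p under 0.05, beside 9.68% of the tests of all genes, and DESeq2 called 16, beside 2.41% of the tests of all genes. Nr1d2 had 182, 212 and 103 CPM in the 3 high-dose female ventricles (libraries 43, 44 and 66) and 428, 368 and 203 CPM in the naïve ones (libraries 35, 36 and 54, the first of which goes against its label), with overlap between libraries 44 and 54. Without library 54 edgeR called 5 members in that comparison, Nr1d2 together with Arntl, Per2, Per3 and Cry1, among 2760 of 14287 genes. The call of Nr1d2 was lost without any 1 of libraries 35, 36, 43 and 66.

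No member was called for an interaction of sex and group, with sex as labelled. By Xist and the Y-linked genes, libraries 50, 56, 62 and 68, labelled female right atria, are male. Libraries 53, 59, 65 and 71, labelled male ventricles, are female, and atrial by Myl4. Each group has such libraries, so the right atrial and ventricular models may miss a difference between the sexes. The interaction of sex and group was called by edgeR in 0 of 90 member tests and 0% of all genes in each of 9 models, with 0 of 90 at an unadjusted p under 0.05, beside 2.53% of the tests of all genes, and by DESeq2 in 0. In libraries 1 to 48 alone 1 was called, Per2 in the high-dose ventricle, with an interaction of 2.03 on the log2 scale (edgeR adjusted p = 0.0252), where the female high-dose libraries had 17.3 and 21.3 CPM and the male ones 5.06 and 6.85 CPM. In that fit 519 of 14418 genes were called. Libraries 49 to 72 against 1 to 48, with group and sex as terms, gave 0 of 30 member calls by edgeR, 5 of 30 at an unadjusted p under 0.05, beside 19.0% of the tests of all genes, and 2 by DESeq2, both in the right atrium (Per3 and Cry1, lower in libraries 49 to 72, among 95 of 15981 genes). Of all genes 0.106% were called in the right atrium, 0.0312% in the left atrium and 17.3% in the ventricle. By the sex markers, all libraries of 49 to 72 labelled right atrium are male and all labelled ventricle are female. The 2 sets thus differ in sex too, and the part of sex and chamber was not tested. Without the libraries that go against their labels, and so with fewer libraries, 0.0184% of all gene tests were called, against 5.62% with them.

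Levels of Arntl were set beside those of the other members as a description, since the same values chose the members. Across the 24 libraries of each chamber (log2 CPM), Arntl ran with Clock at Pearson's r of 0.81, 0.64 and 0.81 in right atrium, left atrium and ventricle (Spearman's rho 0.79, 0.72 and 0.86) and with Npas2 at 0.87, 0.56 and 0.63. It ran against Per3 at -0.86, -0.84 and -0.81 (rho -0.83, -0.83 and -0.82), against Per2 at -0.78, -0.80 and -0.67 and against Nr1d2 at -0.78, -0.78 and -0.65. Cry2 (-0.56, -0.79 and -0.51) and Cry1 (-0.46, -0.45 and -0.57) were less closely opposed. Per1 (-0.27, -0.35 and -0.08) and Nr1d1 (-0.02, -0.03 and 0.03) showed little relation to Arntl. Of the 27 relations 20 were negative. With group means removed over all libraries 19 were, and in libraries 1 to 48 without that step 17 were. With both choices together, group means removed within libraries 1 to 48, 10 of 27 were negative.

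The relations did not rest on the 2 libraries farthest from the median of Arntl, without which Per3 was at -0.81, -0.79 and -0.86. They rested in part on the groups. With each value centred on the mean of its group, sex and chamber, Clock stayed at 0.73, 0.64 and 0.81 and Per3 at -0.63, -0.56 and -0.71, while Per2 was at -0.28, -0.47 and -0.42 and Npas2 at 0.53, 0.43 and 0.16. Within libraries 1 to 48 Per3 was at -0.91, -0.91 and -0.82, and within libraries 49 to 72, 8 a chamber, at -0.85, -0.64 and -0.82. Without the libraries that go against their labels Per3 was at -0.90, -0.93 and -0.82. Centred on group means within libraries 1 to 48, where each group mean rests on 2 libraries, Per3 was at -0.27, -0.18 and -0.27 and Per2 at 0.02, 0.43 and 0.65.

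**Figure D4:**
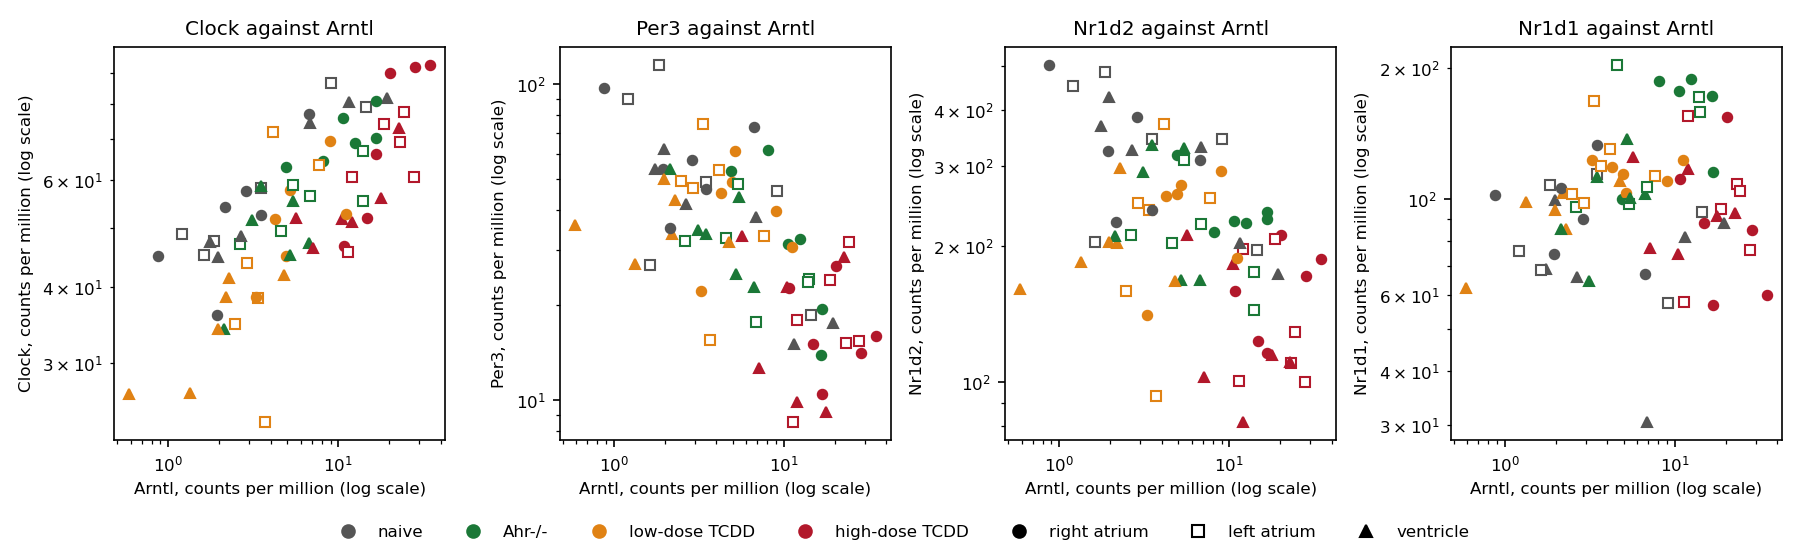
CPM of Clock, Per3, Nr1d2 and Nr1d1 against Arntl in 72 libraries (both axes logarithmic), coloured by group, with a symbol for each chamber. Clock is higher where Arntl is higher and Per3 and Nr1d2 are lower there, whereas Nr1d1 shows little relation, with r between -0.03 and 0.03 in the 3 chambers.

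Ranked by the mean of the 3 within-chamber r among 16687 genes, 7 of the other 9 clock genes stood near the ends. From the lowest, Per3 was at rank 4 (mean r -0.83), Per2 at 8, Nr1d2 at 10, Cry2 at 20 and Cry1 at 49, and from the highest Clock was at rank 3 (mean r 0.75) and Npas2 at 5 (0.69). Per1 was at rank 1211 from the lowest, and Nr1d1, at 7511 (mean r -0.01), was near the middle. Outside the 10 members, the 5 genes most opposed to Arntl were Tef (-0.88), Bhlhe41 (-0.86), Lonrf1 (-0.86), Dbp (-0.83) and Sphk2 (-0.77). The 5 that ran most closely with it were Cdkn1a (0.77), Slc41a3 (0.77), Unc119b (0.70), Il4ra (0.67) and Spon2 (0.67). Cdkn1a, the inhibitor of cyclin-dependent kinases p21, had a median of 14.1 CPM in naïve and 51.3 CPM in high-dose right atria, and Tef, a D-box factor, 225 and 88.0 CPM. The rank is a description of these libraries, which share groups and hearts.

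Of 25 other clock genes on a list, 5 were called in the high-dose right atrium, all lower, beside 0.125% of all genes called lower. The list was chosen with earlier results of these data known, so nothing is read from the difference between these shares. Ciart, a repressor of the ARNTL pair, had a lowest, median and highest level of 10.4, 15.4 and 17.2 CPM in naïve and 1.77, 2.84 and 4.17 CPM in high-dose right atria. It fell by 2.23 ± 0.25 on the log2 scale (SE, edgeR adjusted p = 4.98e-05), with no overlap. The D-box factors Dbp, Tef and Hlf were at -1.39, -1.14 and -1.36, and Bhlhe41, which competes for E-boxes, was at -0.99 (edgeR adjusted p = 0.0240, 0.000505, 0.00369 and 0.00369). The median log2 fold change was -0.54 over the 10 members, -0.28 over the 25 others and -0.01 over all genes tested. Bhlhe40 (-0.29), Nfil3 (0.46) and Rora (-0.48) were not called.

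In the high-dose left atrium 2 of the 25 were called, Ciart (-2.42) and Hlf (-1.46), both lower, beside 0.05% of all genes called lower. Dbp (-1.49) and Tef (-1.11) missed the threshold there (edgeR adjusted p = 0.0622 and 0.0571). In the high-dose ventricle, where 10.6% of all genes were called lower, 8 of 25 were called, all lower, among them Tef (-0.90), Hlf (-0.87), Rora (-0.80) and Ciart (-1.10), while Dbp was at -0.17. In the low-dose ventricle, where the activators were low and 13.3% of all genes were called, 1 of 25 was higher, Dbp (0.94, edgeR adjusted p = 0.0309), and 5 were lower. No gene of the list was called in Ahr-/- hearts of any chamber or in low-dose atria. The medians of the 10 members, of the 25 others and of all genes were -0.49, -0.16 and 0.07 in the high-dose left atrium and -0.29, -0.32 and 0.01 in the high-dose ventricle.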

How the data were processed

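Total RNA of 72 heart samples was sequenced. Per the labels and the study's methods, the authors aligned reads with TopHat to mm10 after CASAVA 1.8 base calling and counted reads per gene, and the deposited values are these raw read counts; DESeq is named for their tests. The label field for treatment names TCDD for every sample, naïve ones included, so groups were read from titles and that field together. The 0 columns of no sample left nothing out, and 82 identifiers without a symbol held 3.91% of counts. Their share was 0.379 to 5.97% in libraries 1 to 48 and 2.97 to 14.2% in libraries 49 to 72. The totals behind CPM include them, so CPM of the 2 sets are scaled somewhat differently.

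Counts were tested here with edgeR 4.0.16 (limma 3.58.1, R 4.3.3; quasi-likelihood, TMM, filterByExpr, Benjamini-Hochberg over all genes, calls at an adjusted p under 0.05), with sex and library numbers (1 to 48 or 49 to 72) as terms in the fits over both sexes. DESeq2 1.42.0, other scalings and subsets of libraries were alternatives. The scripts were tested on simulated data. CPM values are counts scaled to the library total, and correlations used log2 CPM with a prior count of 2 (Python 3.11.15, pandas 2.3.3, numpy 2.4.6, scipy 1.17.1, matplotlib 3.10.9). Named genes are the 10 members, a list of 25 other clock genes (1 gene whose values the rule names is not reported here), and the 5 genes at each end of the ranking by mean r with Arntl. The members and lists were chosen with earlier results of these data known, so correlations carry no p. Each library comes from its own mouse heart chamber as far as the methods say, which heart is not labelled, and p-values measure the spread between these libraries. Limits on a count of 0 cover counting error only.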

Additional observations from a re-analysis of the deposited data

Results flagged for a closer look

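In 6 of the 120 sets of 6 libraries (1 gene in 1 group and chamber), 1 library stood apart from the others by Dixon's criterion, where chance gives about 1 in 20. Npas2 was at 0.0464 CPM in library 51, labelled naïve left atrium, against 2.65 to 3.87 CPM in the other 5. Per1 was at 107 CPM in library 1 of the naïve right atria, against 43.2 to 65.1 CPM, and at 20.4 CPM in library 12 of the high-dose right atria, against 41.7 to 50.3 CPM. In library 69, labelled low-dose left atrium, both Per1 (21.2 CPM against 46.8 to 61.2) and Per2 (9.71 CPM against 28.7 to 45.5) were lowest. Nr1d1 was at 30.6 CPM in library 33 of the naïve ventricles, against 66.1 to 99.6 CPM. Libraries 51 and 69 are among those whose markers go against the label.

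In 3 cases every library of one set lay on the opposite side of the naïve mean of its sex from every library of another, and these differences were not tested. In low-dose hearts Arntl was 1.17 higher in the right atrium and at -1.25 in the ventricle (mean log2 CPM difference from naïve), 2.42 apart. Npas2 in the same hearts was at 0.79 and -1.06, 1.85 apart. Of the libraries behind these 2 genes, low-dose ventricles 45, 46 and 71, naïve ventricles 35 and 53 and naïve right atrium 4 go against their chamber label by Myl4, and naïve right atrium 50 and low-dose right atrium 68 against their sex label. The ventricular log2 fold changes by edgeR were -0.23 for Arntl and -1.08 for Npas2 in libraries 1 to 48, and -1.58 and -0.81 without the libraries that go against their labels, none called. In Ahr-/- left atria Npas2 was at -0.79 in females and 1.55 in males, a difference of -2.34. The male value rests on naïve library 51, with 1 count of Npas2, as 1 of 3 naïve male libraries, and library 51, the female Ahr-/- libraries 23 and 24 and the male Ahr-/- library 57 go against their labels by Myl4.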

How the results depend on the processing

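No paired analysis was run. Library numbers are unique, the groups share no replicate numbers, and the labels do not tie chambers to hearts. In libraries 49 to 72 the sex and chamber markers ran in the same order in every group. By number they read male atrium, male atrium, male ventricle, female atrium, female atrium and female ventricle. Whether the markers can tie libraries to hearts was not tested. The chamber fit thus takes libraries that share a heart as independent. The 16 of 90 calls over both sexes became 25 with DESeq2, 9 without the libraries against their labels, 2 at an adjusted p under 0.0001 and, chosen after seeing the data, 1 in libraries 49 to 72 only and 13 to 19 without 1 library; other settings gave 13 to 23. Of all gene tests 3.45% were called in that family, 6.08% with DESeq2, 4.28% in libraries 1 to 48, 2.85% without the libraries against their labels and 0.449% in libraries 49 to 72. The 1 of 180 calls within a sex became 0 at 0.0001, 16 with DESeq2, 19 in libraries 1 to 48, 6 without the libraries against their labels (over 16 comparisons, 2 having no value), 3 each with no filter, with a term for library numbers and with all 4 groups in 1 fit, and 0 to 5 without 1 library (0 without library 35, 36, 43 or 66, and 5 without library 54). There 1.27% of all gene tests were called, 2.41% with DESeq2, 2.81% in libraries 1 to 48, 1.65% without the libraries against their labels, and 1.00% with no filter, 1.31% with a term for library numbers and 0.268% with all 4 groups in 1 fit. Calls for library numbers were 0, but 3 by library size only and 2 with DESeq2, with 5.62%, 5.92% and 8.32% of all gene tests. Chambers gave 0, but 1 without the libraries against their labels, where 10.7% of all gene tests were called. Sex by group gave 0, but 1 in libraries 1 to 48, with 0.463% of all gene tests. Negative relations to Arntl numbered 17 to 20 of 27 in the planned settings and 10 in libraries 1 to 48 centred on group means, a setting chosen after seeing the data. Signs turned at the high dose for Clock (left atrium -0.11 in libraries 49 to 72; ventricle 0.0578 in libraries 1 to 48, and -0.225 to 0.0198 without 1 library, the last without library 54) and, in ventricles 49 to 72, for Arntl (-0.16), Per2 (0.0218), Per3 (0.336) and Cry1 (0.0512). Of those ventricles, naïve library 53 and high-dose library 65 go against their labels, and the cause was not tested. Depth limits Npas2 most, with 1 count in 1 library.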
